A study of Bos taurus with 8 samples.

Results

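Bta-miR-205, bta-miR-203, bta-miR-31 and bta-miR-184 are miRNAs known from keratinocytes of stratified squamous epithelium, the type of epithelium that lines the rumen. They were chosen by name for that known expression, at a time when earlier results of these data were known. Values were found for 3 of the 4, among the 377 entries that reached 10 reads in any library (268 bovine entries and 109 human homologues). Bta-miR-203 was not analysed here. The study asked whether a rapid change from forage to grain alters the miRNAs of rumen fluid. Fluid was drawn with a syringe from the ventral sac of the rumen of 4 non-lactating, ruminally cannulated Holstein cows. Every cow first received the forage diet (0% concentrate), a mixture of grass silage, corn silage and grass hay, and was sampled on day 7. The cows then moved stepwise to the high-grain (HG) diet with 65% concentrate in dry matter and were sampled on the first day at that level (day 1), 4 h after feeding both times. All cows changed in the same order, so diet and time of sampling cannot be told apart. Each sample gave 1 small RNA library, hence 4 libraries per diet.

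Mature miRNAs guide the silencing complex to messenger RNAs that pair with their seed, and each keratinocyte miRNA has a known place in the renewal of stratified epithelium. MiR-205 is abundant in the basal, proliferating layer and protects the epithelial state by holding down the ZEB repressors of E-cadherin. MiR-203 marks the cells that leave this layer and restrains p63, the transcription factor of epidermal progenitors. MiR-31 rises in activated and regenerating keratinocytes. MiR-184 is best known from the corneal and lens epithelium, where it can antagonise miR-205. Rumen fluid is not a tissue, and the source of its miRNAs was not tested here. Fewer cells of a type and less RNA per cell cannot be told apart in these libraries.

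Of the miRNAs with values, bta-miR-205 maps to the minus strand of chromosome 16 of UMD3.1, from 75799972 to 75799993. Bta-miR-31 maps to the plus strand of chromosome 8, from 22534821 to 22534841. Bta-miR-184 maps to the plus strand of chromosome 21, from 25913822 to 25913843. The entries are 22, 21 and 22 nucleotides long, on 3 different chromosomes. In the gene table of another assembly (ARS-UCD2.0), used for names alone, MIR31 lies within the span of IFNE, which encodes the epithelial interferon epsilon. MIR205 overlaps no other gene and has CAMK1G as a neighbour. MIR184 lies within an uncharacterised locus between RASGRF1 and ANKRD34C. Every read of bta-miR-205 and bta-miR-31 was assigned to that entry alone, as was the case in all libraries for 96 of the 268 bovine entries. For bta-miR-184 the count divided among matching entries was exactly 1 read for every 2 counted, in all 4 libraries that listed it.

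The libraries held 300116 to 522804 miRNA reads out of 1407364 to 4972757 reads in all, so that miRNAs made up between 6.67% and 29.3% of a library. Shares below are percentages of the miRNA reads of the same library, and their 95% Wilson intervals cover counting error only, because amplified reads are not independent molecules. The tables list no entry with fewer than 2 reads, so an entry that is not listed may have had 1 read or none. HG replicate 2 stood apart from the other 7 libraries. Over 153 bovine entries with at least 400 reads in total, the median absolute log2 ratio to the mean of the other 7 libraries was 0.35 in HG replicate 2. Each of the rest, compared with the 6 libraries that remain without HG replicate 2, had between 0.036 and 0.064. Results of the diet comparison are therefore also given without it.

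Bta-miR-205 was the most abundant of the keratinocyte miRNAs, with 31972 reads and rank 21 among the bovine entries. On the forage diet it took 0.943%, 0.971%, 0.957% and 0.937% of the miRNA reads in replicates 1 to 4, from 4659, 5079, 4364 and 3110 reads. On the HG diet it took 0.906%, 1.39%, 0.957% and 0.935%, from 2719, 4672, 3740 and 3629 reads. The forage libraries were thus nearly level, and 3 of the HG libraries were within their range or slightly below it, whereas HG replicate 2 was above every other library. Its interval, 1.35% to 1.43%, was clear of the highest of the others, 0.945% to 0.998% in forage replicate 2. On the forage diet the mean share was 0.952% ± 0.0154 (SD, n = 4). On the HG diet it was 1.05% ± 0.230 (SD, n = 4), or 0.933% ± 0.0256 (SD, n = 3) without HG replicate 2.

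Bta-miR-31, with 5646 reads, ranked 71. Its shares on the forage diet were 0.168%, 0.154%, 0.154% and 0.157% in replicates 1 to 4, from 831, 804, 703 and 520 reads. Its shares on the HG diet were 0.159%, 0.325%, 0.149% and 0.165%, from 477, 1091, 581 and 639 reads. The pattern was that of bta-miR-205 with a larger step, since the diets overlapped in 7 libraries and HG replicate 2 was high. The interval in that library was 0.306% to 0.344%, while the highest of the others, forage replicate 1, had 0.157% to 0.180%. Forage libraries had a mean share of 0.158% ± 0.00677 (SD, n = 4). HG libraries had 0.199% ± 0.0838 (SD, n = 4), or 0.157% ± 0.00809 (SD, n = 3) without HG replicate 2.

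**Figure D1:**
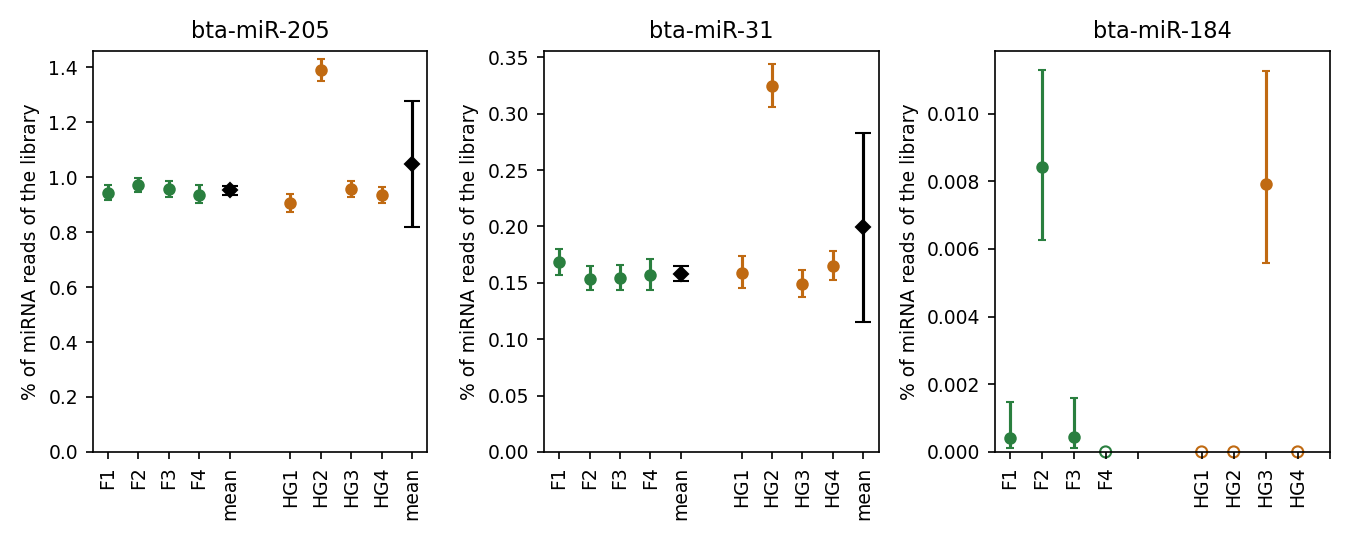
Share of each miRNA in the miRNA reads of its library (%), for forage replicates 1 to 4 (F, green) and HG replicates 1 to 4 (orange), with 95% Wilson intervals as bars. For bta-miR-205 and bta-miR-31, black diamonds are diet means with SD (n = 4). Open circles at 0 are libraries that do not list bta-miR-184. HG replicate 2 stands above the rest at 1.39% for bta-miR-205 and 0.325% for bta-miR-31, while bta-miR-184 is high in forage replicate 2 and HG replicate 3 alone.

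Bta-miR-184 was rare and uneven. It had 79 reads in all and ranked 235 of 268. Forage replicate 2 held 44 of them (84.2 RPM of miRNA reads, 95% Wilson interval 62.7 to 113) and HG replicate 3 held 31 (79.3 RPM, 55.9 to 113). Forage replicates 1 and 3 held 2 reads each, and forage replicate 4 and HG replicates 1, 2 and 4 did not list it. Hence 94.9% of its reads lay in 1 library of each diet, which carry different replicate numbers, and the high level in these libraries was similar. Among the 377 entries, 8 were not listed in at least 4 libraries. Bta-miR-184 was the only one of the 377 with at least 10 reads in both of these libraries and under 50% of the smaller of the 2 counts elsewhere, a description chosen after its values were seen. The reads of bta-miR-184 came from 2 distinct sequences in each of these libraries. In forage replicate 2, the 88 other entries with 20 to 70 reads had 1 to 15 distinct sequences (median 5), and 10 of them had at most 2. In HG replicate 3, the 77 such entries had 2 to 12 (median 4), and 2 of them had at most 2.

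In all 8 libraries bta-miR-205 exceeded bta-miR-31 and bta-miR-31 exceeded bta-miR-184. Neighbours in this order were separated far beyond their intervals where both had one. Bta-miR-184 had no interval in the 4 libraries that did not list it. Bta-miR-205 had 5.61, 6.32, 6.21 and 5.98 times the reads of bta-miR-31 in forage replicates 1 to 4. In HG replicates 1 to 4 the ratio was 5.70, 4.28, 6.44 and 5.68. Per nucleotide of the mature entry, the same ratio was 4.09 in HG replicate 2 and between 5.35 and 6.14 in the other libraries. The ratio of reads in HG replicate 2 had a 95% interval of 4.01 to 4.57, below the intervals of the other 7 libraries, of which the lowest bound was 5.17. These intervals too cover counting error alone, and the library has no replicate. The mean ratio was 6.03 ± 0.314 (SD, n = 4) for forage and 5.52 ± 0.900 (SD, n = 4) for HG, or 5.94 ± 0.432 (SD, n = 3) without HG replicate 2. A ratio between miRNAs also carries the preference of the library kit for each sequence, which was not tested.

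Counting error gives a scale for the spread between libraries. HG replicate 2, set aside here after its values were seen, held the largest deviation, so the spread over the rest is a description and no test. For bta-miR-205 the SD over the other 7 libraries was 0.0211 percentage points, 1.37 times the counting SD of 0.0154 and 2.23% of the mean. For bta-miR-31 it was 0.00670 percentage points, 1.06 times the counting SD and 4.25% of the mean. These 7 libraries hold both diets. Over all 8 libraries the SD was 9.88 and 8.66 times the counting SD, respectively.

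The diets were compared with edgeR's quasi-likelihood test on the read counts of all 377 entries. The cow, taken from the replicate number, was a block, and Benjamini-Hochberg adjustment was used. The test called 0 of 377 entries (0%) at an adjusted p under 0.05, and 9 (2.39%) had an unadjusted p under 0.05. DESeq2 also called 0 at an adjusted p under 0.05 and had 3 (0.796%) at an unadjusted p under 0.05. None of the keratinocyte miRNAs was among the 9. For bta-miR-205 the mean level was 6178 ± 137 CPM (read counts over TMM-scaled library size; SD, n = 4) on the forage diet and 7132 ± 2181 CPM on the HG diet. Its log2 fold change of 0.16 had a standard error of 0.14 and a 95% interval of −0.18 to 0.51, and did not pass the test (edgeR adjusted p = 0.788). For bta-miR-31 the levels were 1026 ± 37.2 and 1372 ± 705 CPM. Its log2 fold change of 0.31 had a standard error of 0.25 and a 95% interval of −0.30 to 0.91, and did not pass either (edgeR adjusted p = 0.788). For bta-miR-184 the edgeR adjusted p was 0.957, and no fold is read from it, since nearly all its reads lay in 1 library of each diet. The number of libraries limits all 3 tests.

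Libraries of the same number are taken here as 1 cow, which the labels do not state. By cow, the difference was carried by number 2. The log2 CPM of bta-miR-205 differed between HG and forage by −0.048, 0.71, −0.012 and 0.0044 in cows 1 to 4. That of bta-miR-31 differed by −0.072, 1.27, −0.064 and 0.079. Both miRNAs were thus higher on the HG diet in 2 of 4 cows and lower in 2. Outside cow 2 every difference lay between −0.072 and 0.079, so the shared signs are not read as agreement. Without replicate 2, the log2 fold change was −0.018 (standard error 0.022, 95% interval −0.066 to 0.029) for bta-miR-205 and −0.021 (standard error 0.053, 95% interval −0.14 to 0.096) for bta-miR-31, with edgeR adjusted p of 0.919 and 0.991. In that fit 2 entries (0.531%) passed the test, neither of them a keratinocyte miRNA, and 20 (5.31%) had an unadjusted p under 0.05. Bta-miR-184 was among the 20 (edgeR unadjusted p = 0.013), which rests almost wholly on HG replicate 3 with 31 reads. The direction of bta-miR-205 and bta-miR-31 therefore turned, and their standard errors fell, when replicate 2 was left out. The log2 ratio of mean shares, 0.14 for bta-miR-205 and 0.33 for bta-miR-31, turned as well when reads were taken relative to all reads of the library, to −0.26 and −0.18. The libraries of each diet differed widely on that scale. Bta-miR-205 had 1661 ± 874 RPM of all reads (SD, n = 4) on forage and 1384 ± 866 on HG. Bta-miR-31 had 279 ± 160 and 247 ± 127. The mean share of miRNA among all reads was 17.4% on forage and 13.7% on HG.

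**Figure D2:**
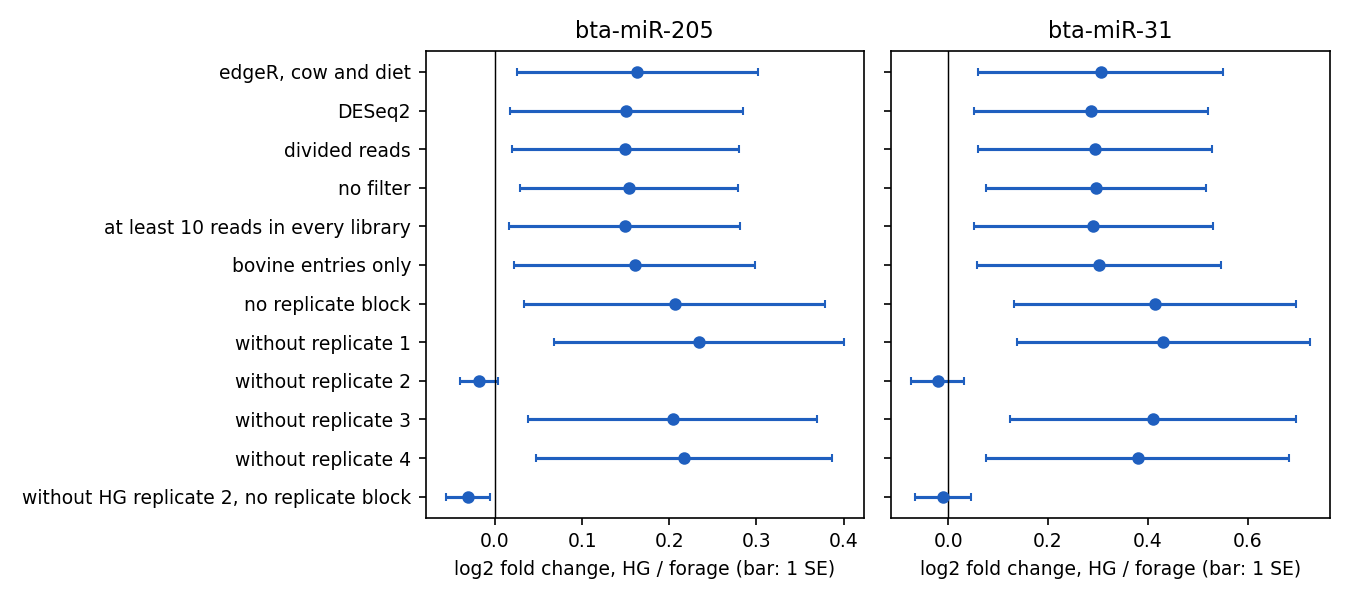
Log2 fold change of bta-miR-205 and bta-miR-31 between diets (x axis, HG over forage) with 1 standard error as bars, for the edgeR fit with cow and diet (top) and each alternative (rows). All values are above 0 except those without replicate 2 (−0.018 and −0.021) or without HG replicate 2 (−0.031 and −0.010).

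The rise of both miRNAs in HG replicate 2 was among the larger ones over the 153 bovine entries with at least 400 reads. Entries with fewer reads were left out. Among these, bta-miR-34a (391 reads) had 0.0345% in HG replicate 2 and 0.00767% to 0.0103% in the others. Relative to the mean of the other 7 libraries, bta-miR-31 was 2.06-fold higher in share, rank 3 of the 153 bovine entries compared. Bta-miR-205 was 1.47-fold higher, rank 19. Of these 153 entries, 63 were higher in HG replicate 2 and 90 lower, with a median log2 ratio of −0.16, and 3 were at least 2-fold higher. On the scale of TMM-normalized CPM the ratios were 2.37 for bta-miR-31 and 1.70 for bta-miR-205. On the scale of all reads of the library HG replicate 2 did not stand out. There bta-miR-205 had 1199 RPM (reads scaled to a common total), against 625 to 2763 in the other libraries, and bta-miR-31 had 279.9 RPM, against 105 to 493. The spread on this scale moves with the share of miRNA among all reads, which was 8.62% in HG replicate 2.

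**Figure D3:**
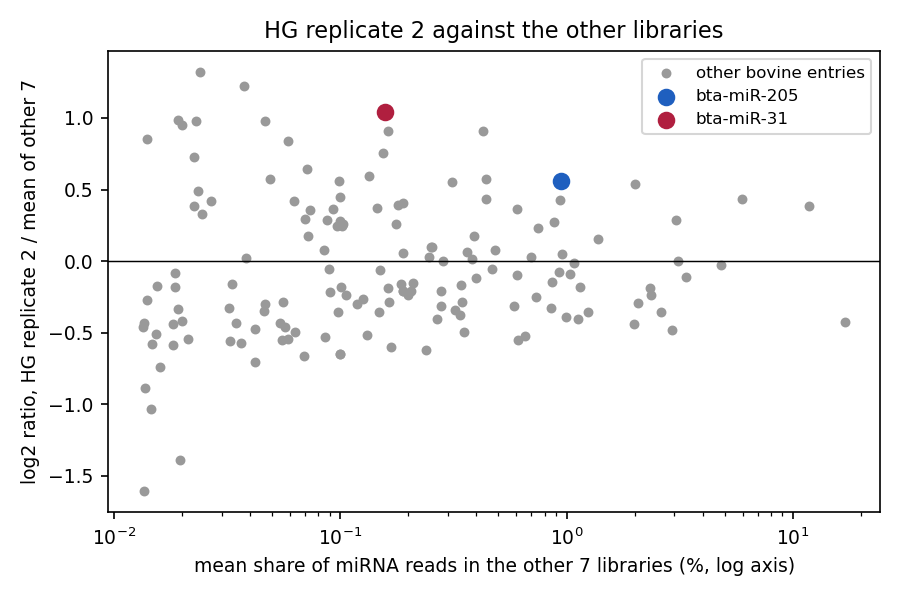
Log2 ratio of the share in HG replicate 2 to the mean of the other 7 libraries (y axis) against that mean (x axis, %, log axis), for 153 bovine entries with at least 400 reads. Bta-miR-31 (red, 1.04) ranks 3 and bta-miR-205 (blue, 0.56) ranks 19 of the 153.

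The number of distinct sequences, a readout that the choice of the miRNAs did not use, was also recorded. Bta-miR-205 had 51, 52, 42 and 42 distinct sequences in forage replicates 1 to 4 and 40, 44, 37 and 37 in HG replicates 1 to 4. Bta-miR-31 had 19, 24, 25 and 19 on the forage diet and 16, 14, 18 and 17 on the HG diet. Bta-miR-31 thus had its fewest distinct sequences in HG replicate 2, the library with its most reads. It had 77.9 reads per distinct sequence there and between 27.4 and 43.7 in the other libraries. For bta-miR-205 the figure was 106 in HG replicate 2 and between 68.0 and 104 elsewhere. Over the 153 bovine entries, the median ratio of distinct sequences in HG replicate 2 to the mean of the other libraries was 0.772, and it was 1.02 for bta-miR-205 and 0.710 for bta-miR-31. Distinct sequences increase with the number of miRNA reads, which was greater on the forage diet for 3 of the same-numbered pairs, and were not compared between diets for that reason.

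**Figure D4:**
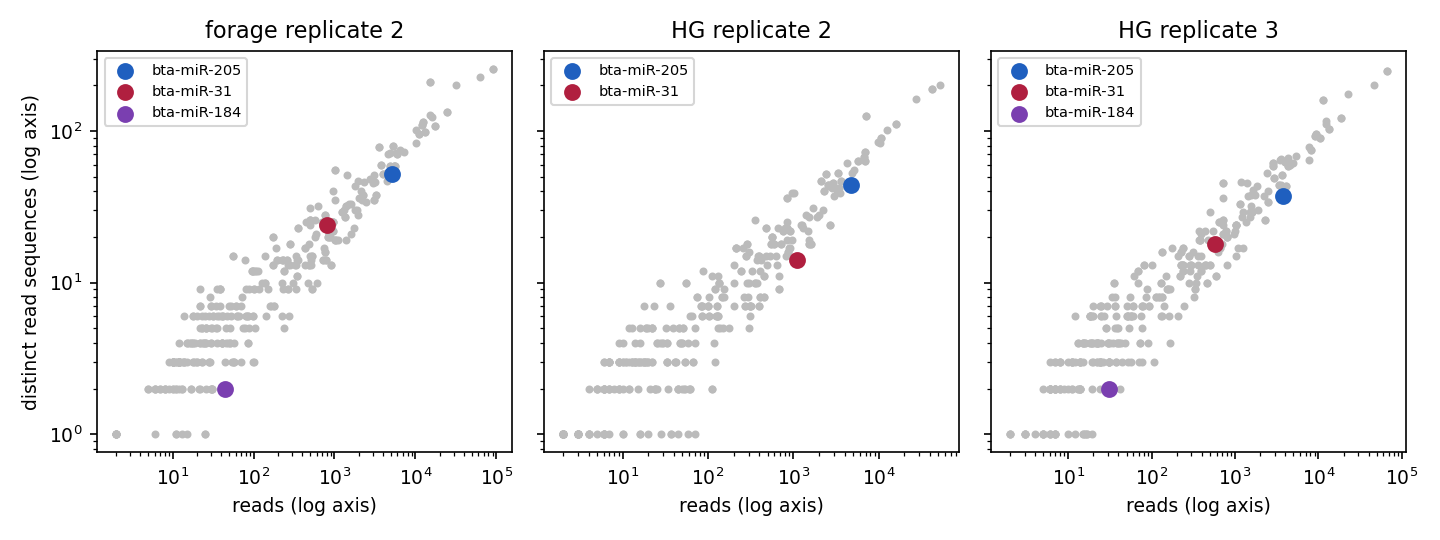
Distinct read sequences (y axis, log axis) against reads (x axis, log axis) of each entry in forage replicate 2, HG replicate 2 and HG replicate 3, 1 grey point per entry. Bta-miR-184 (purple) has 2 distinct sequences at 44 and 31 reads, and bta-miR-31 (red) has 14 at 1091 reads in HG replicate 2.

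The entries with the profile nearest to each miRNA were sought over the 8 libraries, by the root mean square difference of centred log2 CPM among 151 bovine candidates. For bta-miR-205 they were bta-miR-27b (difference 0.039), bta-miR-200a (0.061) and bta-miR-143 (0.061), where the median candidate had 0.26. MiR-200a belongs to the family that maintains the epithelial state, while miR-143 is typical of smooth muscle and stroma. For bta-miR-31 they were bta-miR-199a-5p (0.053), bta-miR-378 (0.068) and bta-miR-145 (0.091), with a median candidate at 0.41. MiR-199a and miR-145 are typical of fibroblasts and smooth muscle, and miR-378 is hosted by a gene of energy metabolism. HG replicate 2 is the one large deviation over these libraries, so likeness over all 8 selects entries that are raised there. In that library bta-miR-27b stood at 2.91% (1.97% to 2.04% elsewhere), bta-miR-200a at 0.456% (0.293% to 0.319%) and bta-miR-378 at 0.800% (0.414% to 0.438%). Bta-miR-31 itself took rank 45 in likeness to bta-miR-205, and bta-miR-205 took rank 12 in likeness to bta-miR-31. Without HG replicate 2, 0 of the 3 neighbours of either miRNA remained. The nearest were then bta-miR-451 (0.017), bta-let-7f and bta-let-7g for bta-miR-205, against a median candidate of 0.074, and bta-miR-30b-5p (0.040), bta-miR-23a and bta-miR-15a for bta-miR-31, against 0.088.

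Other miRNAs with known roles in keratinocytes formed a further list, also chosen with earlier results of these data known. All 7 of its members (bta-miR-21-5p, bta-miR-24-3p, bta-miR-27b, bta-miR-23b-3p, bta-miR-125b, bta-miR-34a and bta-miR-210) had positive log2 fold changes on the HG diet, with a median of 0.20, against 0.026 over all 377 entries, of which 210 (55.7%) were positive. None of the 7 passed the test. Members of a list are not independent of each other, so these counts are a description and no test. Positive signs also prevailed among endothelial miRNAs (2 of 2, the arms of miR-126, median 0.24) and those of stroma and smooth muscle (5 of 6, median 0.18). Without replicate 2 these were 2 of 2 (median 0.035) and 3 of 6 (median −0.013). Positive signs were fewer in the erythroid (0 of 3, median −0.077), leukocyte (2 of 6, median −0.054) and striated muscle lists (0 of 2, median −0.14). Without replicate 2 those lists had 1 of 3, 2 of 6 and 1 of 2 positive. In HG replicate 2, 6 of the 7 were above the range of the other libraries and bta-miR-125b was below it, where 101 of all 377 entries (26.8%) were above that range and 186 (49.3%) below. Bta-miR-34a, which p63 represses, had 0.0345% there and 0.00767% to 0.0103% in the others. Bta-miR-125b had 0.285% there and 0.314% to 0.372% in the others, and its log2 fold change between diets was 0.011. Without replicate 2 the median of the list was 0.061, with 6 of 7 positive, and that of all entries was 0.0043, with 198 of 377 (52.5%) positive.

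Among the miRNAs of epithelium in general, 7 of 8 had positive log2 fold changes (median 0.17) and none passed the test. Without replicate 2, 5 of 8 were positive (median 0.057), against the 52.5% of all entries. The members did not move alike in HG replicate 2, where 4 of the 8 were above the range of the other libraries (26.8% of all entries), 3 below it (49.3%) and 1 within it. Bta-miR-183 was 1.65-fold higher there than the mean of the other libraries, while bta-miR-182 (0.722 times) and bta-miR-96 were below the range. Bta-miR-141 took 0.260% there against 0.134% to 0.168% elsewhere, while bta-miR-200b took 0.189% against 0.201% to 0.219%. Summed over its 5 entries (bta-miR-200a, bta-miR-200b, bta-miR-200c, bta-miR-141 and bta-miR-429), the family took 1.41% of the miRNA reads in HG replicate 2 and 1.11% to 1.17% in the others. Bta-miR-205 was 0.989 times this sum in HG replicate 2 and 0.790 to 0.875 times in the others. Bta-miR-31 was 0.231 times the sum there and 0.127 to 0.149 times elsewhere. Both were thus raised beyond the sum of the family in that library, which has no replicate. Against single members this held for bta-miR-31 (2.06-fold over the mean of the other libraries) but not for bta-miR-205 (1.47-fold), since bta-miR-141 was 1.69-fold and bta-miR-200a 1.47-fold higher there, while bta-miR-429, bta-miR-200c and bta-miR-200b stood at 1.21, 1.04 and 0.900 times.

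Marker lists of other cell types also stood apart in HG replicate 2, some higher, like the keratinocyte miRNAs, and some lower. The summed share of bta-miR-205, bta-miR-31 and bta-miR-184 was 1.09% to 1.13% on the forage diet, 1.06% to 1.11% in HG replicates 1, 3 and 4, and 1.71% in HG replicate 2. Stroma and smooth muscle miRNAs (6 of 6 measured) took 6.56% to 6.83%, 6.56% to 7.06% and 9.07%, respectively. Most of this was bta-miR-143 (8.06% in HG replicate 2). There 4 of the 6 were above the range of the other libraries (26.8% of all entries), and bta-miR-199a-3p and bta-miR-214 were within it. Endothelial miRNAs (2 of 2) took 0.497% to 0.516%, 0.491% to 0.549% and 0.767%. Erythroid miRNAs (3 of 3) were lower, with 20.2% to 20.6%, 19.8% to 20.2% and 14.98%. Leukocyte miRNAs (6 of 6) took 2.29% to 2.33%, 2.26% to 2.30% and 1.87%. They were not all lower, as 4 of the 6 were below the range of the other libraries in HG replicate 2 (49.3% of all entries), while bta-miR-146a (1.47-fold) and bta-miR-142-3p (1.20-fold) were above it. Striated muscle miRNAs took 0.615% to 0.701%, 0.655% to 0.736% and 0.464%, from 2 of 4 members, with bta-miR-133b and bta-miR-206 below the minimum of 10 reads. In HG replicate 2 the keratinocyte sum was 1.55 times its mean over the other 7 libraries, against 1.50 for endothelium, 1.35 for stroma and smooth muscle, 1.3015 for the other miRNAs with roles in keratinocytes, 1.22 for epithelium in general, 0.812 for leukocytes, 0.741 for the erythroid list and 0.686 for striated muscle. Several of these sums rest mostly on 1 member. In HG replicate 2 bta-miR-21-5p took 15.4%, where the list of other miRNAs with roles in keratinocytes summed to 22.99%. For bta-miR-451 and the erythroid list the shares were 12.6% and 14.98%. For bta-miR-205 and the keratinocyte sum they were 1.39% and 1.71%. These lists share 1 total of reads, so a lower share of 1 raises the rest, and their part in the level of the keratinocyte miRNAs was not tested.

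**Figure D5:**
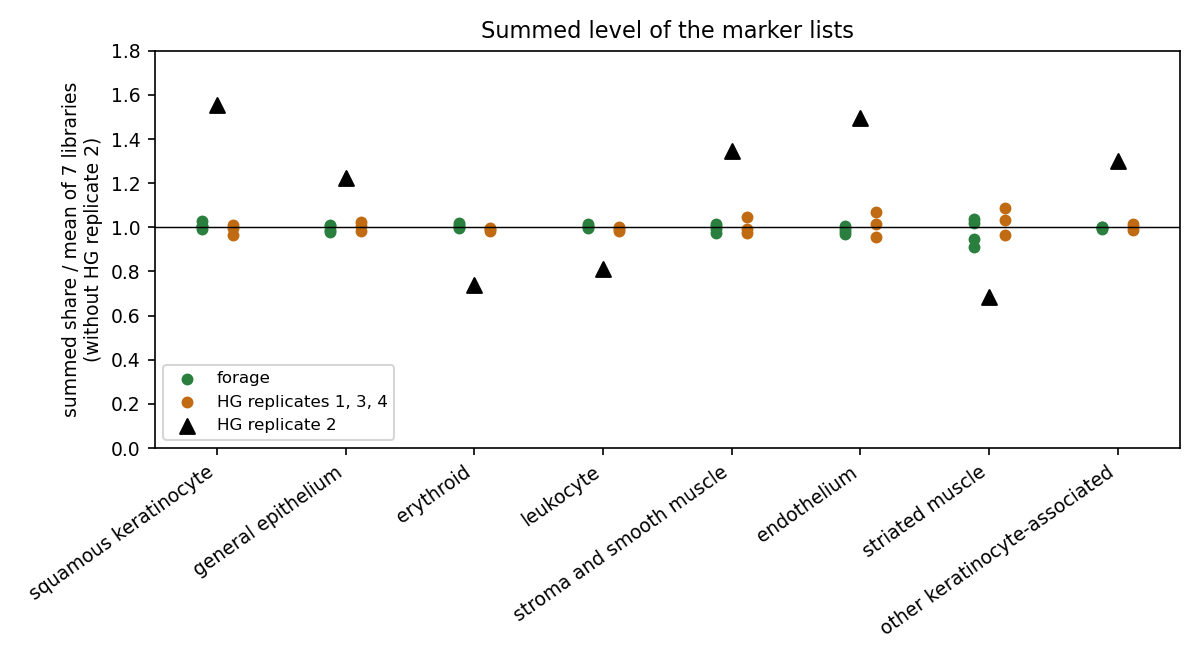
Summed share of each marker list divided by its mean over the 7 libraries other than HG replicate 2 (y axis), with forage libraries in green, HG replicates 1, 3 and 4 in orange and HG replicate 2 as black triangles. The triangle is highest for the keratinocyte miRNAs at 1.55 and lowest for striated muscle at 0.686, while the other libraries lie between 0.909 and 1.09.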

How the data were processed

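Total RNA of rumen fluid was made into libraries with the NETflex Small RNA-Seq Kit. The authors demultiplexed the reads (bcl2fastq 2.20), trimmed adapters with Skewer, discarded short and low-quality reads, and ran sRNAbench with Bowtie on UMD3.1 and miRBase (bovine miRNAs and human homologues). The deposited tables give, per library and entry, the count of reads (in full at each entry a read matches), an expected count divided among entries, the number of distinct sequences, and RPM values of the divided reads, which the authors made relative to miRNA reads and to all reads and from which both totals were recovered here. A deposited table of normalized signal (divided reads over DESeq2 size factors, by the authors) served only as an alternative for likeness.

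The diets were compared over entries that reached 10 reads in any library, by glmQLFit and glmQLFTest of edgeR 4.0.16 under R 4.3.3 (TMM, two-sided, the study's model of cow plus diet, Benjamini-Hochberg threshold 0.05) and, as an alternative, DESeq2 1.42.0. Entries not listed in a library were entered as 0. Standard errors were taken from the fold change and the F statistic. Both fits were tested on simulated data. Python 3.11.15, pandas 2.3.3, scipy 1.17.1 and matplotlib 3.10.9 were used for the rest. Likeness used log2 CPM with a prior count of 1 and named the 3 nearest entries with at least 400 reads in all.

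Libraries of the same number were taken as 1 cow, since the same 4 cows were sampled on both diets and the labels number the libraries of each diet alike. Across 328 entries, deviations from the diet mean correlated between libraries of 1 number at −0.082, −0.060, 0.31 and −0.0079 for numbers 1 to 4, which does not show the pairing. The labels do not say whether libraries came from separate extractions. The 4 miRNAs and the lists were chosen with earlier results of these data known. The neighbours in profile follow a rule fixed with them, and list members are named as examples. The pattern of bta-miR-184 was named after its values were seen. No mature sequence is printed, as no sequence table was used here.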

Additional observations from a re-analysis of the deposited data

Results flagged for a closer look

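In groups of 4 libraries, a library was picked out where its gap to the nearest other library was over 0.829 of the whole range of the group. Of 14 groups looked at, 5 held such a library, where chance gives about 1 in 20, although these 14 are not independent and that rate does not hold for bta-miR-184, where most libraries had no or few reads and any library with more stands apart. HG replicate 2 stood apart with 1.39% of the miRNA reads for bta-miR-205, 0.325% for bta-miR-31 and 1.71% for the sum of bta-miR-205, bta-miR-31 and bta-miR-184. For bta-miR-184, forage replicate 2 stood apart with 0.00842% and HG replicate 3 with 0.00793%, from 44 and 31 reads.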

How the results depend on the processing

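The count of 0 called entries was also found under 10 of the 11 alternatives. Without replicate 2 it was 2, neither of them a keratinocyte miRNA, so that leaving out 1 number gave 0 to 2. The log2 fold change of bta-miR-205 was reversed without HG replicate 2 and without the replicate block (−0.031), and ran from −0.018 to 0.23 when 1 number was left out. That of bta-miR-31 was reversed in the same fit (−0.010) and ran from −0.021 to 0.43. That of bta-miR-184, −0.25 in the fit of all libraries and −1.55 with DESeq2, was reversed to 0.14 there and ran from −6.33 to 3.02. No fold is read from these values of bta-miR-184. None of the log2 fold changes of the 3 miRNAs passed the test. Without the replicate block alone, the values were 0.21, 0.41 and −0.22, and no call changed. The log2 ratio of mean shares, HG over forage, was 0.14 for bta-miR-205, 0.33 for bta-miR-31 and 0.17 for the sum of the 3 miRNAs. It turned to −0.26, −0.18 and −0.25 relative to all reads of the library, a scale on which libraries of each diet differed widely. Leaving out 1 library gave −0.030 to 0.20 for bta-miR-205, −0.0071 to 0.45 for bta-miR-31 and −0.026 to 0.23 for the sum. The cause was not tested. Without replicate 2, an alternative chosen after seeing the data, the list medians of the keratinocyte miRNAs (−0.018), stroma and smooth muscle (−0.013) and striated muscle (0.022) were reversed. A minimum of 10 reads in every library gave no value for bta-miR-184, whose 79 reads limit any statement on it.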
